A study of Arabidopsis thaliana with 18 samples.

Results

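Splicing in the first leaf was compared between C24 and Ler-1, 2 inbred accessions of Arabidopsis thaliana, from the 2 C24 and 2 Ler-1 libraries and without any Col-0 library in the contrast. Splicing events were matched between the accessions by event type, by their coordinates on the TAIR10 chromosomes and by gene locus, and an event was kept when each of the 4 libraries had at least 10 reads on its 2 forms together. The C24 list held 5666 events and the Ler-1 list 5916. Of the 5528 events in both, 5140 in 2633 genes passed, out of 6553 distinct events in all lists of the series. The other 388 matched events had fewer reads. Just inside the minimum, 53 of the tested events had exactly 10 reads in their lowest library, with a median absolute difference of 8.15 percentage points and 1 event called. Just outside it, 32 of the 388 had 9 reads, with a median of 9.24 points. The series holds 18 polyA RNA libraries from 9 groups, which are 5 accessions (C24, Ler-1, Col-0, Bur-0 and Kro-0) and 4 F1 hybrids with Col-0 as a parent. The hybrids of Col-0 with C24 and with Ler-1 (Col-0 x C24, then Col-0 x Ler-1 below), 2 libraries each, served as a separate check of direction, and Col-0, Bur-0 and Kro-0 are given as levels only. All plants were seedlings of 14 days with no treatment named in the labels, raised on plates with 1% sucrose, at 22 °C for 16 h a day in light of 100 µmol per square metre and second and at 18 °C for the 8 h of dark, so the groups differed only in genotype as far as the labels say. The labels call the 2 libraries of a group biological replicates and do not say how many plants went into each.

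Introns begin at a donor (5′ splice site, usually the letters GT) and end at an acceptor (3′ splice site, usually AG), and the spliceosome may choose between neighbouring sites, skip an exon or leave an intron in the mRNA. In plants, intron retention is the most frequent form of alternative splicing, and transcripts with a retained intron or a shifted reading frame are often degraded or kept in the nucleus. Serine/arginine-rich proteins guide the choice of sites, and natural accessions differ in sequence at and around splice sites.

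Of the 4 event types, IR is the retention of an intron, Alt3 a choice between acceptors, Alt5 a choice between donors and Skip_Exon the skipping of an exon. Each library has the reads of 2 forms per event. In the first form less sequence stays in the transcript, because the intron is spliced, the longer intron is taken or the exon is left out, and in the second form the intron is retained, the shorter intron is taken or the exon is included. PSI is the share of the second form, computed by the authors as its reads over all reads plus 1, and is given here in percent. Because of that added read, an event with second-form reads only stays somewhat under 100%. A higher PSI therefore means that more sequence was kept in the transcript. In the skipped exon events named below, the second form holds the reads of both junctions of the exon and the first form those of 1. Their PSI is thus not on the scale of Alt3 and Alt5, and it gives inclusion more weight. In AT3G05160, C24 had a mean PSI of 71% as a skipped exon and 47% at the matching donors. Lengths in bases are those of the reference unless an assembly is named.

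Sequences at some of the called events are shown first, 5′ to 3′ on the gene's strand, from the RefSeq TAIR10.1 genome, which is that of Col-0. The C24 and Ler-1 genomes themselves were not used here. Each splice site is shown with 6 exon and 18 intron bases, 24 in all, and capitals mark the first or last 2 intron letters. For ZML1 (chr3:7424518-7424556, plus strand) the acceptors lie 15 bases apart; C24 used the first and Ler-1 the second of these lines.
ZML1 acceptor used in C24: caatcacttttgttgcAGgacgca
ZML1 acceptor used in Ler-1: caggacgcaaatcttgAGgctgat
For COR27 (chr5:17198601-17198627, minus strand) the acceptors are 3 bases apart.
COR27 acceptor used more in C24: tcttgtgatgttttaaAGcagagg
COR27 acceptor used more in Ler-1: tgtgatgttttaaagcAGaggtat
At 3 further sites, C24 reads used a position where the reference letters are neither GT, GC nor AG. They are a GA donor in AT2G04790 (chr2:1679900-1679923, plus strand), a TT donor in AT3G57810 (chr3:21415933-21415956, plus strand) and an AT acceptor in SR30 (chr1:2944976-2944999, minus strand), each shown here with a site that Ler-1 used. In AT2G04790 both accessions also used the annotated donor. In SR30 the AT acceptor was minor in C24, with 16 reads, against 247 C24 reads at the AG acceptor that Ler-1 used.
AT2G04790 donor used in C24: gacatcGAatgtaatctgtgattc
AT2G04790 donor used in Ler-1: tcgaatGTaatctgtgattcagac
AT2G04790 annotated donor: ttccagGTtctgattctcagacat
AT3G57810 donor used in C24: tcagagTTgagtataataaacacc
AT3G57810 donor used in Ler-1: accttgGTaatcctccattcactc
SR30 acceptor used in C24: tttctgaaatgatgttATttgcta
SR30 acceptor used in Ler-1: ctatttacgggtgattAGgatcac
The whole introns of EDM2 (chr5:22451336-22451402, minus strand), COAB (chr1:4200107-4200190, plus strand) and TBP1 (chr3:4381382-4381486, plus strand) follow, since each was retained in C24 and had 0 retained reads in Ler-1. COAB's intron begins with GC in the reference.
EDM2 intron: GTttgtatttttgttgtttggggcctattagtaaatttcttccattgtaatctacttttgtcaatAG
COAB intron: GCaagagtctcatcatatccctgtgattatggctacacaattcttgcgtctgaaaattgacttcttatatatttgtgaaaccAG
TBP1 intron: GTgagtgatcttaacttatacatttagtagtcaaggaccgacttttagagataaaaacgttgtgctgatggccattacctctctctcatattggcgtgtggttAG

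Of the 5140 events, 246 (4.79%) in 168 genes differed between C24 and Ler-1 in the edgeR quasi-likelihood test at a Benjamini-Hochberg adjusted p under 0.05, and such events are called below. PSI was higher in C24 in 125 (2.43% of those tested) and lower in 121 (2.35%). The difference was at least 10 percentage points in 177 events (3.44% of those tested). The median absolute difference was 19.9 points over the called events, beside 2.09 points over all events tested, where the 2 libraries of an accession differed by a median of 2.16 points in C24 and 1.81 points in Ler-1. In all 246 called events the C24 libraries lay wholly above or below the Ler-1 libraries, which was also so in 45.3% of all events tested. A form had 0 reads in both libraries of 1 accession and some reads in the other accession in 124 called events (50.4%), beside 604 of all tested (11.8%). Among the called events the form had 0 reads in C24 in 46 and in Ler-1 in 80, and over all events tested the split was 366 in C24 and 240 in Ler-1; an event of ZML1 and one of AT2G04790, in which each accession lacked the other's form, count on both sides. The median depth was 71 reads per tested event in C24, against 108 in Ler-1, and its part in these counts was not tested. With 3 libraries the test called 108 events without C24 replicate 1, 126 without C24 replicate 2, 21 without Ler-1 replicate 1 and 19 without Ler-1 replicate 2. With limma on PSI, which called 59 events in all, 17 of the 33 events named below were not called, namely those of AT1G19715, AT1G27520, AT1G34200, AT2G32910, AT3G52050, AT5G18230, GGH3, GSTU10, PAT1, PIL6, PSAF, SR30, SR34b and VAB2, both events of AT3G05160 and the rise of AT2G04790; limma on the logit of the counts left out AT1G19715 (adjusted p = 0.102), GSTU10 (0.177) and VAB2 (0.116).

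**Figure D1:**
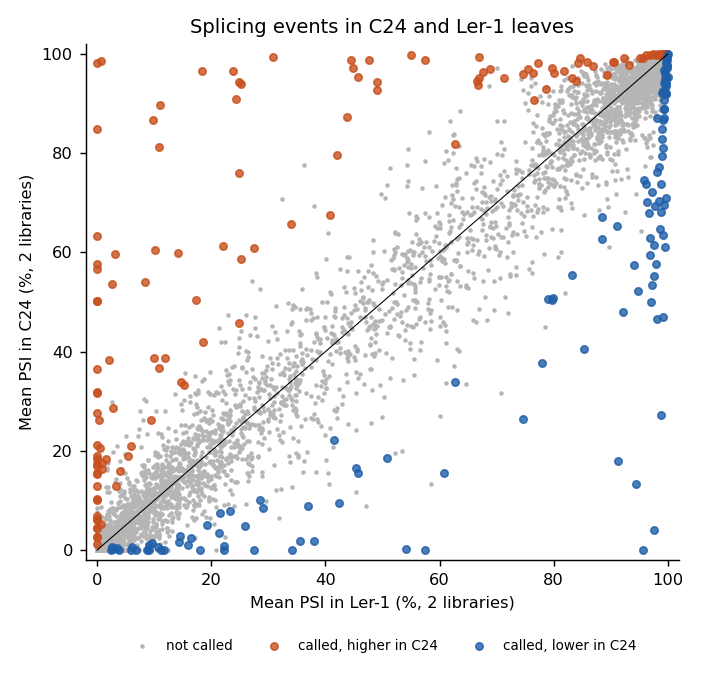
Mean PSI of each of the 5140 tested events in C24 (vertical axis, percent) against Ler-1 (horizontal axis, percent), each the mean of 2 libraries. Called events are coloured, 125 higher and 121 lower in C24, and many of them lie at the edges, where an accession had 0 reads of a form in 124 called events.

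The largest rises in C24 were choices of acceptor or donor that were close to complete. ZML1, a ZIM-like zinc finger protein of the GATA family, had a PSI of 98.4% and 97.9% in C24 and 0% and 0% in Ler-1. C24 kept the 15 bases between its acceptors in all 109 reads and Ler-1 removed them in all 57 reads, so a kept form could be up to 5.26% in Ler-1, the upper limit that a count of 0 allows (3 reads; such limits cover counting error only). The difference was 98.2 points (edgeR adjusted p = 5e-06). AT4G38520, a protein phosphatase 2C gene with acceptors 21 bases apart in the 5′ UTR, had 98.4% and 98.6% in C24, against 1.43% and 0% in Ler-1, a difference of 97.8 points (adjusted p = 9.11e-07). GGH3, a gamma-glutamyl hydrolase that trims the glutamate tail of folates, had 92.9% and 76.9% in C24 and 0% of 468 reads in Ler-1, a difference of 84.9 points (adjusted p = 6.71e-06). Its reads were also fewer in C24, with 25 reads in all, or 3.69 rpm (reads per 1000000 reads on matched events), against 45.3 rpm in Ler-1. In these bulk leaf samples, fewer cells of a type and less RNA per cell cannot be told apart.

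TMT2 encodes a sugar transporter of the vacuole membrane. Between 2 of its donors 189 bases apart, the one nearer the acceptor had 85.7% and 93.8% in C24, against 11.7% and 10.3% in Ler-1 (difference 78.7 points, edgeR adjusted p = 0.000114). The nearer donor had 33 reads in C24 and 13 in Ler-1, and the farther one 2 and 103. Further donors share this acceptor and are outside that PSI: one had 42 reads in C24 and 35 in Ler-1, and another 0 and 38. AT2G32910, a DCD domain gene with acceptors 8 bases apart in the 5′ UTR, had 95.5% and 97.5% in C24, against 26.7% and 10% in Ler-1 (difference 78.1 points, adjusted p = 0.000235). These values do not overlap, but the 2 Ler-1 libraries of AT2G32910 stand well apart, on 14 and 19 reads. AT1G14570, a UBX domain gene, kept 63 coding bases in 93.6% and 94.4% of C24 reads, against 24.3% and 26% in Ler-1 (adjusted p = 2.07e-06). AT5G18230, a NOT2/NOT3/NOT5 family gene of the kind that regulates transcription and mRNA decay, kept 6 coding bases in 99.5% and 99.4% of reads in C24, against 20% and 41.8% in Ler-1 (adjusted p = 3.25e-06). Both are in-frame segments by their length. DESeq2 ended the call of ZML1 (adjusted p = 0.123), and leaving out 1 Ler-1 library ended those of TMT2 (0.0762 and 0.0749) and AT2G32910 (0.0809 and 0.124, without Ler-1 replicate 1 and replicate 2).

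Intron retention rose in C24 in 53 events and fell in 40. AT5G53050, an alpha/beta-hydrolase gene, retained a 3′ UTR intron, of 79 bases in the reference and 67 in the assemblies of both accessions, in 89.6% and 83.7% of reads in C24, against 11.1% and 8.51% in Ler-1 (difference 76.9 points, edgeR adjusted p = 9.11e-07). This intron overlaps the gene AT5G53048 on the opposite strand, and since no source used here says that counting was stranded, the reads of the 2 genes cannot be told apart. AT1G27520, a glycosyl hydrolase family 47 gene, retained a 143-base coding intron at 84.1% and 78.4% in C24, against 5.88% and 15.8% in Ler-1 (adjusted p = 0.000642). EDM2, a nuclear protein needed for resistance to downy mildew, retained its 67-base intron at 60% and 66.7% in C24, with 0 of 58 reads retained in Ler-1 (up to 5.17%; adjusted p = 0.000263). The event names place the same intron at 67 bases in the C24 assembly and 103 bases in that of Ler-1. COAB, which makes the phosphopantothenoylcysteine of coenzyme A synthesis, retained its intron in 30 of 51 reads in each C24 library (57.7%), with 0 of 550 in Ler-1 (up to 0.545%; adjusted p = 1.38e-06). The retained form was thus present in both C24 libraries of these genes and was at 0 in Ler-1 for EDM2 and COAB. Without Ler-1 replicate 1 or replicate 2 the calls of EDM2 (0.078 and 0.0837) and AT1G27520 (0.106 and 0.0986) ended.

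AT2G04790, annotated as a PTB domain engulfment adapter, showed the sharpest fall, and it rests on 3 donors that share an acceptor. Between the GA donor and the GT donor 4 bases further, C24 used GA in 56 of 56 reads and Ler-1 used GT in 47 of 47 reads, which gave a PSI of 0% and 0% in C24, against 94.7% and 96.7% in Ler-1 (difference -95.7 points, edgeR adjusted p = 2.63e-05). Between the annotated donor and the GA donor 19 bases further, C24 had 47.7% and 65.8% and Ler-1 had 0 of 164 reads at GA (adjusted p = 4.1e-05). AT3G57810, a cysteine proteinase gene, used its TT position in 23 of 24 reads in C24 and its GT donor in all 79 reads in Ler-1, so that PSI was 0% and 8.33% in C24 and 97.3% and 97.7% in Ler-1 (difference -93.3 points, adjusted p = 6.94e-05). In AT3G57810 and between GA and GT in AT2G04790, C24 and Ler-1 thus differed in donor in all reads but 1, while the annotated donor of AT2G04790 had 45 reads in C24 and 164 in Ler-1. Without Ler-1 replicate 1 or replicate 2 the call between GA and GT ended (0.053 and 0.0696), as did that between the annotated donor and GA (0.053 and 0.0837) and that of AT3G57810 (0.0545 and 0.0598), and DESeq2 gave 0.197 for the GA and GT pair.

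Other falls were also large. AT3G10760, a homeodomain-like gene, kept 29 bases of its 3′ UTR in 15% and 11.5% of reads in C24, against 95.7% and 93.3% in Ler-1 (edgeR adjusted p = 3.5e-05; 0.0627 without Ler-1 replicate 1). GIP1, a small protein of the gamma-tubulin complex that nucleates microtubules, used the acceptor 8 bases upstream in 27% and 27.7% of reads in C24, against 98.8% and 98.7% in Ler-1 (adjusted p = 6.71e-06). ATMAK3, an N-terminal acetyltransferase gene, had 0 of 50 reads at the acceptor that keeps 57 bases in C24 (up to 6%), against 56.7% and 58.1% in Ler-1 (edgeR adjusted p = 0.000324). Its difference was -58.1 and -56.7 points without Ler-1 replicate 1 or replicate 2, and the call ended in both. Further junctions of ATMAK3 are outside that PSI. A longer intron from another donor had 43 reads in C24 and 2 in Ler-1, and another acceptor had 13 and 0. SOS4, a pyridoxal kinase of vitamin B6 salvage linked to salt tolerance, used the donor that keeps 33 bases in 27.8% and 25% in C24, against 76.9% and 72.3% in Ler-1 (adjusted p = 0.000255; 0.073 and 0.0598 without Ler-1 replicate 1 or replicate 2). In each of these 4 genes the shorter intron of the pair made up at most 27.8% of the pair's reads in each C24 library and at least 56.7% in each Ler-1 library. AT3G52050, a 5′-3′ exonuclease family gene, spliced out a 96-base stretch that TAIR10.1 does not annotate as an intron in C24, with a PSI of 41.9% and 51.3%. In Ler-1, 0 of 101 reads were spliced at these 2 sites (98% and 98.1%, edgeR adjusted p = 0.000164). The difference was -51.5 and -51.4 points without Ler-1 replicate 1 or replicate 2, and the call ended in both. From the same donor to another acceptor, a 123-base stretch was spliced by 2 reads in C24 and 22 in Ler-1. That event was not called (9.62 points, edgeR adjusted p = 0.309).

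AT5G42530, which encodes an uncharacterized protein, differed in read total as well as in form. Its longer intron had 36593 and 35926 reads in C24, against 18 and 24 in Ler-1, and the shorter one had 68 and 71 reads in C24, against 20 and 33 in Ler-1. PSI was 0.185% and 0.197% in C24, against 51.3% and 56.9% in Ler-1 (difference -53.9 points, edgeR adjusted p = 1.27e-05). The contrast lay in the longer intron, whose reads differed far more between the accessions than those of the shorter one. AT1G34200, a glyceraldehyde-3-phosphate dehydrogenase-like gene, had 40% and 40.9% in C24, against 81.8% and 88.9% in Ler-1 (adjusted p = 0.0153), and GSTU10, a tau class glutathione transferase, retained its 81-base intron at 26% and 5.08% in C24, against 52.9% and 68.8% in Ler-1 (adjusted p = 0.0346). These are the least firm of the largest differences. The AT1G34200 call ended without any 1 of the 4 libraries (0.12 and 0.0666 without C24 replicate 1 and replicate 2, 0.19 and 0.325 without Ler-1 replicate 1 and replicate 2), and that of GSTU10 ended without C24 replicate 2 (0.211), Ler-1 replicate 1 (0.372) or Ler-1 replicate 2 (0.482) and with DESeq2 (0.12).

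**Figure D2:**
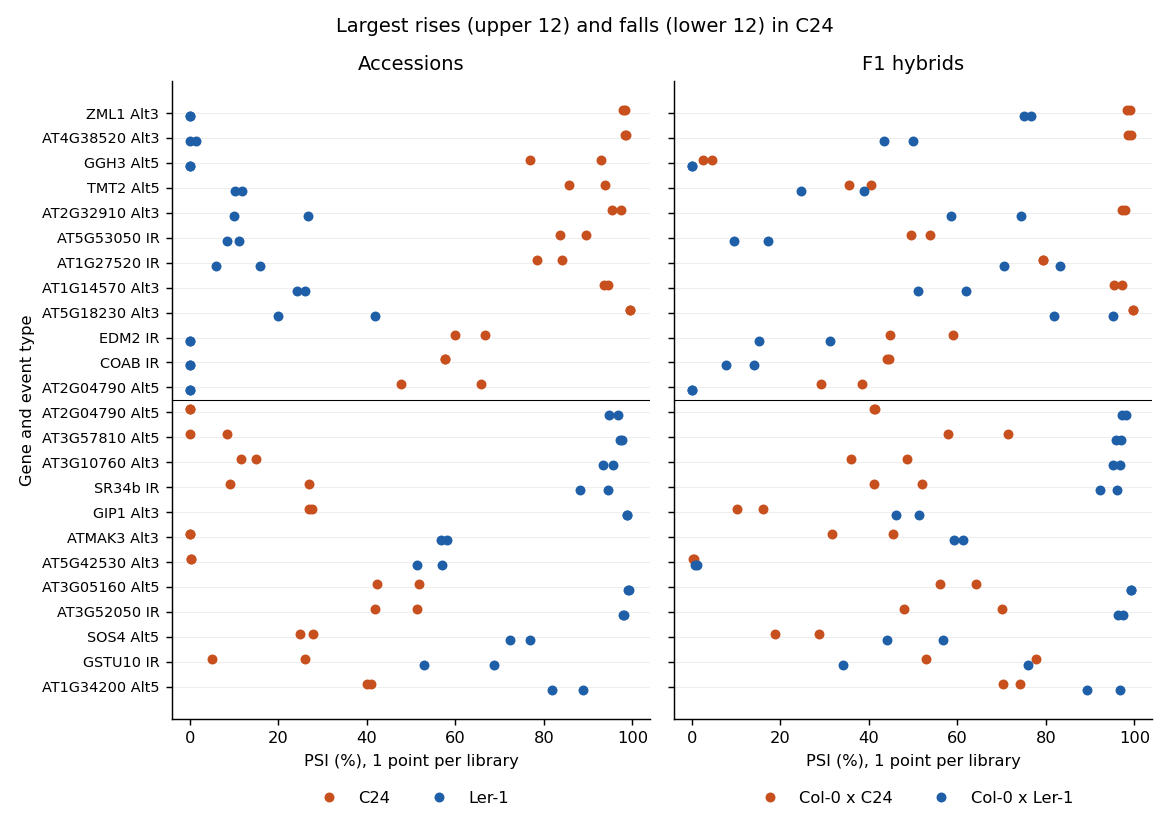
PSI in percent of the 12 largest rises (upper rows) and 12 largest falls (lower rows) among called events, 1 point per library, in C24 and Ler-1 (left panel) and in their hybrids with Col-0 (right panel). The accession libraries do not overlap in any row, while TMT2, AT1G27520 and GSTU10 overlap in the hybrids.

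By type, 93 of 1852 IR events (5.02%), 80 of 1779 Alt3 (4.5%), 56 of 1192 Alt5 (4.7%) and 17 of 317 skipped exons (5.36%) were called, each close to the 4.79% of all events. PSI was higher in C24 in 53 of the IR, 44 of the Alt3, 22 of the Alt5 and 6 of the skipped exon calls. The called events were not independent, since 44 genes had more than 1 and AT1G19715, AT3G05160 and VAB2 had 6 each. In VAB2, a subunit B of the vacuolar proton pump, the event of a 92-base exon had a PSI of 55% and 46.5% in C24, against 78.3% and 81.6% in Ler-1 (edgeR adjusted p = 0.00309). The other 5 calls share its longest intron. Only 2 reads in C24 and 8 in Ler-1 lay on the junction at this exon's own donor. The junction shared with other exon forms had 203 and 537 reads, so PSI here does not measure this exon alone. In AT3G05160, a sugar transporter-like gene of the major facilitator superfamily, an exon of 66 bases was skipped in C24 by 66 and 42 reads and by 0 of 710 in Ler-1, which gave 67.2% and 74.9% in C24, against 99.7% and 99.7% in Ler-1 (adjusted p = 5.2e-06). The matching pair of donors, 155 bases apart, gave 42.2% and 51.7% in C24, against 99.1% and 99.3% in Ler-1 (adjusted p = 5e-06). In the event labelled with both AT1G19715 and AT1G19720, for an exon of 103 bases, PSI was 65.6% and 56.4% in C24, against 28.7% and 26.3% in Ler-1 (edgeR adjusted p = 0.00748). The event's junction at this exon's own donor had 7 reads in C24 and 8 in Ler-1. The junction shared with another exon form had 64 and 64, so PSI does not measure this exon alone here either. The exon-skipping form thus made up a larger share in C24 in VAB2 and AT3G05160, and a smaller one in AT1G19715. Of these 3 genes, VAB2 lost its call without C24 replicate 2 (0.0868), Ler-1 replicate 1 (0.0997) or Ler-1 replicate 2 (0.151), and AT1G19715 without C24 replicate 1 (0.147), Ler-1 replicate 1 (0.154) or Ler-1 replicate 2 (0.176).

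Genes of splicing itself were called in 3 of 82 events, from 22 tested genes of that list, beside 4.79% of all events. The 82 events had a median difference of -0.782 points, against -0.0513 over all events. SR34b, a serine/arginine-rich splicing factor, spliced out a 236-base stretch in C24 that is not an annotated intron, with a PSI of 27% and 9.09% in C24, against 94.4% and 88.2% in Ler-1 (edgeR adjusted p = 0.000762; 0.154 and 0.133 without Ler-1 replicate 1 or replicate 2). A second event in SR34b, at a donor 71 bases apart, was also called, at 31.9 points higher in C24 (adjusted p = 0.0247). SR30, a related splicing factor whose own pre-mRNA is alternatively spliced, used the AT position upstream of its annotated acceptor in 8 of 146 and 8 of 117 reads in C24, with 0 of 485 in Ler-1 (up to 0.619%; difference 6.11 points, adjusted p = 0.00362; 0.122 and 0.144 without Ler-1 replicate 1 or replicate 2). Minor use of this acceptor was seen in both C24 libraries and in no Ler-1 read.

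The light signalling list had 5 called of 24 events, beside 4.79% of all events, all in ZML1, PAT1 and PIL6, with 2 higher and 3 lower in C24. DESeq2 called 4 events of the list, limma on PSI 2 and limma on the logit 7. PAT1, a GRAS protein of phytochrome A signalling, skipped an 80-base exon of its 5′ UTR in 16 and 16 reads in C24, against 1 and 1 in Ler-1, so that PSI was 86.7% and 83.2% in C24 and 99% and 99.1% in Ler-1 (edgeR adjusted p = 0.00046; 0.0924 and 0.104 without Ler-1 replicate 1 or replicate 2). The 3 lower events of the list are PAT1 events that share this longest intron. PIL6, known also as the phytochrome-interacting factor PIF5, used an acceptor 11 bases upstream in 15 of 162 and 6 of 170 reads in C24, with 0 of 539 in Ler-1 (adjusted p = 0.0044). Its PSI was 9.2% and 3.51% in C24, so the difference of 6.36 points was 3.51 points without C24 replicate 1, and the call ended there (0.101) and without Ler-1 replicate 1 or replicate 2 (0.185 and 0.23).

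In the circadian clock list, 1 of 28 events was called, beside 4.79% of all events. It lies in COR27, a cold-induced repressor that feeds into the clock, whose acceptors differ by 3 bases. The kept form made up 75.5% and 76.4% of reads in C24, against 24.8% and 25% in Ler-1, with 465 and 482 reads in the C24 libraries (difference 51.1 points, edgeR adjusted p = 1.9e-05). The libraries of each accession agreed closely, and the call held without any 1 of the 4 libraries. Of 73 photosynthesis events 1 was called, beside 4.79% of all events (2 by DESeq2 and by limma on the logit, 0 by limma on PSI), in PSAF, the photosystem I subunit that docks plastocyanin. It was a stretch of 125 bases spliced out in 31 of 24639 and 10 of 21126 reads in C24, with 0 of 76779 in Ler-1 (adjusted p = 0.0179). That difference of -0.0883 points is the smallest called; it was -0.0494 points without C24 replicate 1, and the call ended there (0.163) and without Ler-1 replicate 1 or replicate 2 (0.226 and 0.252). No event was called by edgeR among the 9 of flowering time (0 at an unadjusted p under 0.05), the 6 of abiotic stress and abscisic acid (4 unadjusted, 1 called by limma on PSI) or the single ones of immunity (1 unadjusted), glucosinolates (0) and other cell types (1), and DESeq2 also called 0 in each of these lists.

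Called events were more frequent on the sides of the transcript than in the coding span. They made up 58 of 746 events (7.77%) on the 5′ UTR side and 17 of 217 (7.83%) on the 3′ UTR side, against 158 of 3930 (4.02%) in the coding span. Within the coding span, Alt3 and Alt5 segments whose length is a multiple of 3 were called in 44 of 769 (5.72%), against 46 of 1512 (3.04%) for other lengths. Where an intron of the event had another length in the C24 assembly than in that of Ler-1, 98 of 865 events (11.3%) were called, against 148 of 4275 (3.46%) where the lengths were equal. The share was 6.02% for a difference of 1 base, 14.3% for 2 to 5 bases, 18.1% for 6 to 20 bases and 13.2% over 20 bases. It was higher with different lengths in each type: 16.5% against 3.77% in IR, 11.2% against 3.02% in Alt3, 7.75% against 3.8% in Alt5 and 12% against 2.67% in skipped exons. These shares describe events that share genes and reads, and no test was made of them. Without Ler-1 replicate 1 the shares were 0.69% with different lengths and 0.35% with equal ones, and without Ler-1 replicate 2 they were 0.577% and 0.327%.

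Of 40 tested Alt3 and Alt5 events with 1 form at a site whose reference letters are neither GT or GC nor AG, 13 (32.5%) were called, in 12 genes. In 11 of the 13 the site was used more in C24, as in AT2G04790, AT3G57810 and SR30, and in the other 2 more in Ler-1. Alt3 and Alt5 events with the usual letters at both forms were called in 123 of 2913 (4.22%).

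**Figure D3:**
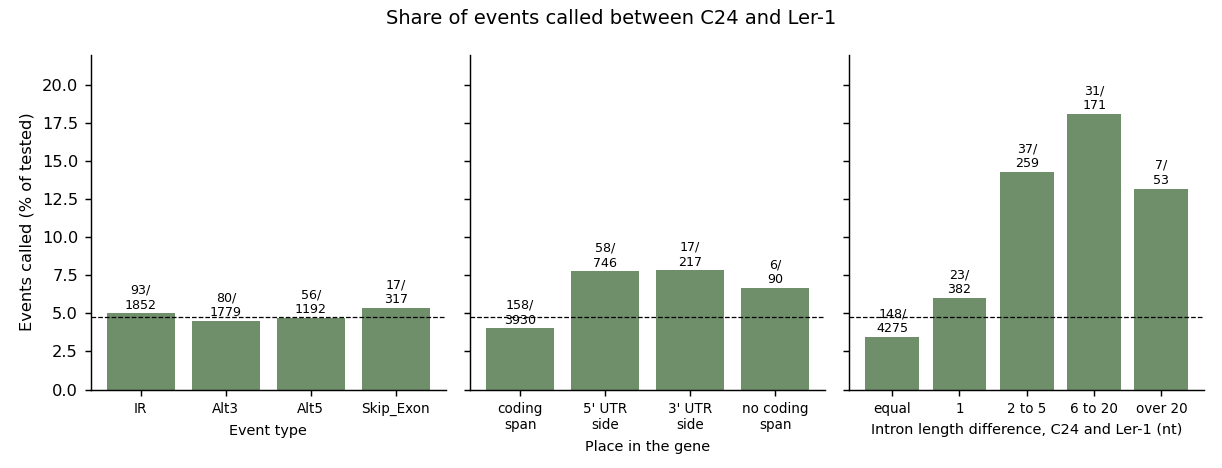
Share of tested events that were called, in percent, by event type, by place in the gene and by the difference in intron length between the C24 and Ler-1 assemblies in nucleotides. The numbers over the bars are called over tested events, the dashed line is the 4.79% of all events, and the bars for 2 to 5 and 6 to 20 nucleotides reach 14.3% and 18.1%.

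The hybrids of each accession with Col-0 gave the same contrast in other libraries. Of 5281 events tested between these hybrids, 56 (1.06%) were called, 22 higher and 34 lower in Col-0 x C24. Of the 244 events called between the accessions and measured in the hybrids, 223 (91.4%) had the same direction, beside 2896 of 5123 (56.5%) of all events, and in 181 (74.2%) the hybrid libraries also did not overlap in that direction, beside 23.6% of all. The hybrid difference was a median of 44.3% of the accession difference, with quartiles of 21.2% and 59%. Equal use of both parental copies would give 50%. Of the 56 events called between the hybrids, 46 (82.1%) were among those called between C24 and Ler-1, which is 18.7% of those 246, and all 46 had the same direction. With 3 libraries the hybrid test called 6 and 5 events without Col-0 x C24 replicate 1 or replicate 2, and 11 and 7 without Col-0 x Ler-1 replicate 1 or replicate 2.

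Single genes kept the direction to different degrees. AT4G38520 had 98.6% and 99.2% in Col-0 x C24, against 43.5% and 50% in Col-0 x Ler-1, a difference of 52.1 points (edgeR adjusted p = 0.000226). AT3G05160 had 56.1% and 64.2% at its donor in Col-0 x C24, against 99.3% and 99.2% in Col-0 x Ler-1 (adjusted p = 0.000226). At the GA donor of AT2G04790, Col-0 x C24 had 29.2% and 38.4%, while Col-0 x Ler-1 had 0 of 247 reads (adjusted p = 0.000549). In AT3G05160 and AT2G04790 the Col-0 x C24 hybrid had the form that C24 had and Col-0 did not, whereas in AT4G38520 the form of C24 was also that of Col-0 (98.4%). The hybrid difference was 53.3% of that between the accessions in AT4G38520, 74.8% in AT3G05160 and 59.6% in AT2G04790. ZML1 had 99.1% and 98.4% in Col-0 x C24, against 76.6% and 75% in Col-0 x Ler-1 (difference 22.9 points, adjusted p = 0.00533), and GGH3 had 2.52% and 4.51%, against 0 of 766 reads (difference 3.51 points, adjusted p = 0.0301). Reads of the C24 parent were few for GGH3, at 3.69 rpm, beside 58.5 rpm in Col-0.

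**Figure D4:**
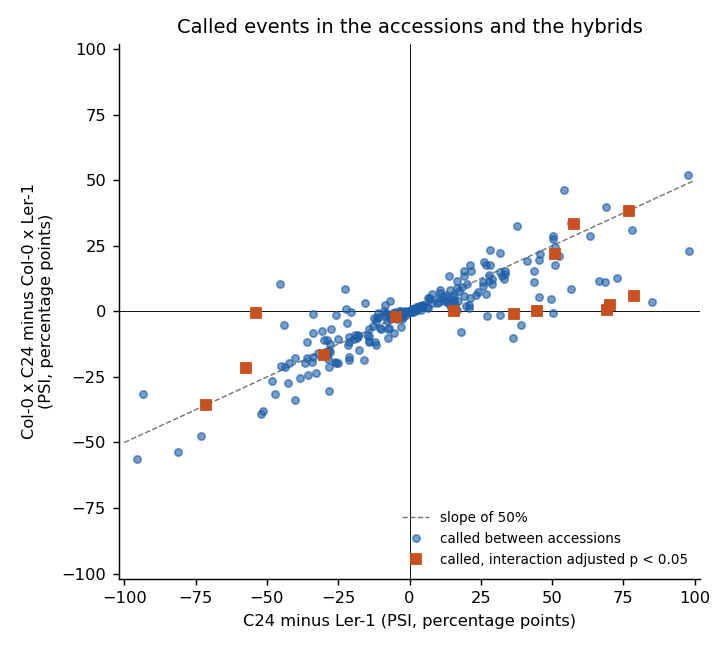
PSI difference between the hybrids of Col-0 with C24 and with Ler-1 (vertical axis, percentage points) against the difference between C24 and Ler-1 (horizontal axis, percentage points) for the 244 called events measured in both. Of these, 223 had the same sign in both comparisons, and the dashed line marks a hybrid difference of 50% of the accession difference; squares are the 14 events whose differences themselves differed.

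The accession difference and the hybrid difference were compared by an interaction term over the 8 libraries, on the scale of log odds. The term tests whether the 2 differences are equal, which equal use of both parental copies would not give. By this term 14 of 5123 events (0.273%) differed, all of them called between the accessions. TBP1, the TATA-binding protein of the core transcription machinery, was the only one of opposite sign. Its intron was retained at 38.2% and 35% in C24 and in 0 of 117 reads in Ler-1 (difference 36.6 points, edgeR adjusted p = 0.000402; 0.0932 and 0.0824 without Ler-1 replicate 1 or replicate 2). In the hybrids it was at 26.8% and 10.6% in Col-0 x C24, against 23.2% and 16.3% in Col-0 x Ler-1, a difference of -1.04 points within the spread of the libraries (interaction adjusted p = 0.0147). AT1G27520 had 79.3% and 79.4% in Col-0 x C24, against 83.1% and 70.5% in Col-0 x Ler-1, so that the 70.4 points between the accessions were 2.54 points in the hybrids. This intron had 13.8 rpm in C24, against 3.25 rpm in Ler-1, and 15.7 rpm in Col-0. GSTU10 had 10.3 points higher retention in Col-0 x C24, opposite to the accessions, but its hybrid libraries overlapped and the interaction had an adjusted p of 0.345.

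Levels in the other accessions, given with no test, placed the called events on either side. Col-0 lay nearer to C24 in 109 and nearer to Ler-1 in 134 of 243 called events with a Col-0 value. Over the 242 events listed in every accession, Col-0, Bur-0 and Kro-0 were all nearer to C24 in 62, all nearer to Ler-1 in 89 and split in 91. Ler-1 stood alone in ZML1, where Col-0, Bur-0 and Kro-0 had 98.6%, 98.7% and 96.8% (means of 2 libraries), and likewise in AT4G38520, COR27, SOS4 and GIP1, where the other accessions were nearer to C24. C24 stood alone in AT2G04790, AT3G57810, AT3G10760 and AT3G05160. A form had reads in C24 and 0 in the 4 other accessions in 34 called events of 23 genes, with a median absolute difference of 14 points, beside 45 of the 5020 tested events in every list (0.896%). The Col-0 x C24 hybrid also had reads of that form in 30 of the 34, beside 41 of the 45. A form with reads in Ler-1 and 0 in the 4 other accessions was found in 10 called events of 8 genes, with a median of 23.6 points, beside 29 of all (0.578%). The Col-0 x Ler-1 hybrid had reads of that form in 9 of the 10, beside 28 of the 29. Other genes split the accessions. COAB's intron was retained at 52.2% in Col-0, as in C24, and at 0% in Bur-0 and Kro-0, as in Ler-1. The SR34b stretch had a PSI of 20.8% in Kro-0, as in C24, while Col-0 (91.5%) and Bur-0 (95.7%) were near Ler-1.

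**Figure D5:**
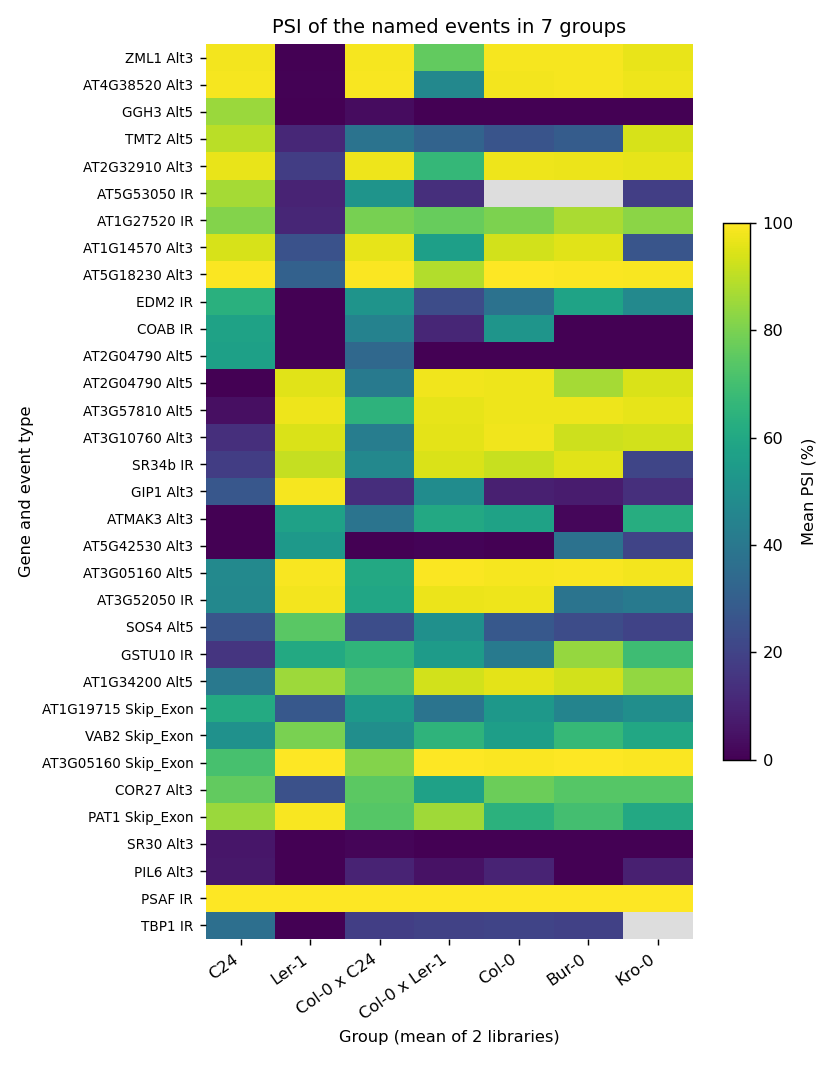
Mean PSI in percent (colour, 2 libraries per group) of the 33 named events in C24, Ler-1, their 2 hybrids with Col-0, Col-0, Bur-0 and Kro-0; grey marks an event not listed in that group. ZML1 is high in every group but Ler-1, and the upper AT2G04790 row is above 0% only in C24 (56.7%) and Col-0 x C24 (33.8%).

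Event reads per library were 3636688 and 3186952 in C24, against 4817258 and 5752819 in Ler-1, and 4346636 to 6134488 in the 4 hybrid libraries. Among cell type markers, 5 of 6 mesophyll genes (RBCS1A, RCA, CA1, LHCB5 and LHCB6) had 37 events. Of these, edgeR called 0 (5 at an unadjusted p under 0.05, and 1 called by DESeq2). RBCS1A alone took 19.9% and 19% of event reads in C24, against 24.1% and 24% in Ler-1. Of the guard cell genes 1 of 5 had a listed event, with 91 and 79 reads in C24 and 167 and 202 in Ler-1, and no trichome, phloem, xylem or root hair marker had one. Since a gene is seen only through a listed event, these counts cannot test the leaf label or show that a cell type was absent. The reads on an event differed at least 2-fold between the accessions, in rpm, in 51 of 246 called events (20.7%), beside 322 of all tested (6.26%). Of the 51, 33 were higher and 18 lower in C24. Among the named events, the higher ones include ZML1 (16 rpm in C24, 5.48 in Ler-1), AT5G18230 (51.1 and 15.6), GSTU10 (15.9 and 2.99), SR34b (10 and 3.18), AT2G32910 (9.06 and 3.13) and AT1G34200 (8.01 and 2.53). The lower ones include COAB (15.1 and 52.8), ATMAK3 (7.26 and 16.7), TMT2 (5.13 and 11.2) and AT3G57810 (3.53 and 7.53). Among events within 2-fold, 195 (4.05%) were called, and 91.8% of those had the same direction in the hybrids. The part of read totals or of cell composition in the called differences was not tested beyond that.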

How the data were processed

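For each of the 18 libraries the authors deposited 1 table, which gives per splicing event the read count of either form and PSI. By their values the counts are whole reads, not normalized by the authors, and PSI is a fraction that the authors computed. In all 106262 rows it equalled second-form reads over all reads plus 1. The submitters' processing notes name the TAIR10 build, HISAT2 and edgeR 3.0.8, with no role for either tool; the counting rule, strand setting and filters are not given in the sources used here, nor is the genome to which the hybrids were aligned. The meaning of the forms was read from the annotated introns of RefSeq TAIR10.1, whose chromosome coordinates are those of TAIR10.

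Events with at least 10 reads in each library were tested with edgeR 4.0.16 (R 4.3.3) on both count columns, with a term per library and a form-by-group term, over the 4 libraries of the comparison and with Benjamini-Hochberg adjustment over all events; the hybrids had a fit of their own, and 8 libraries gave the interaction. The script was tested on simulated data. Alternatives used DESeq2 1.42.0, limma 3.58.1 (on PSI, and on the logit with 0.5 reads added), other minimums (20 and 1 read), form-wise TMM, a replicate block, wider fits and each library left out (pandas 2.3.3, numpy 2.4.6, matplotlib 3.10.9). Libraries held 3186952 to 6134488 event reads, and replicates differed by more than sampling noise (chi-square of 1.43 to 2.52 per event). The reads have no stated molecular identifiers, so read limits cover counting error only.

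Named events were, among called events without overlap, the 12 largest rises and 12 largest falls, the 3 largest of each type, those of 9 gene lists (the lowest adjusted p per gene, at most 12) and any with the opposite sign in the hybrids and an interaction adjusted p under 0.05. The comparison, its members and the lists were chosen with earlier results of these data known. The fitted log2 odds have no bound where a form has 0 reads, so PSI differences are given.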

Additional observations from a re-analysis of the deposited data

Results flagged for a closer look

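Among the named events, 8 had an accession difference that differed from the hybrid difference in the edgeR interaction term on the log odds scale. Equal use of both parental copies would also make the 2 contrasts unequal, so the term does not test a departure from such use. In 4 of these 8 events the hybrid difference in PSI was -2.84% to 7.7% of that between the accessions. TMT2 differed by 78.7 points between C24 and Ler-1 and by 6.06 points between their hybrids with Col-0 (interaction adjusted p = 0.00655). AT5G42530 differed by -53.9 and -0.556 points (0.00442). AT1G27520 differed by 70.4 and 2.54 points (0.0403), and TBP1 by 36.6 and -1.04 points (0.0147). Col-0, a parent of both hybrids, had mean PSI of 26.1% in TMT2, 0.323% in AT5G42530, 80.1% in AT1G27520 and 20.7% in TBP1. The AT5G42530 event had 2.32e+03 rpm in Col-0, 1.07e+04 rpm in C24 and 8.96 rpm in Ler-1. The part of the Col-0 copy in these hybrid values was not tested.

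In the other 4 the hybrid difference in PSI was 37.9% to 58% of that between the accessions, around the median of 44.3% over the called events, although the odds differed. COAB differed by 57.7 and 33.5 points (interaction adjusted p = 0.00442), GIP1 by -71.4 and -35.7 points (0.00986), ATMAK3 by -57.4 and -21.7 points (0.0479) and AT5G53050 by 76.9 and 38.3 points (0.0499). A form had 0 reads in Ler-1 for COAB and GIP1 and in C24 for ATMAK3.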

How the results depend on the processing

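With 2 libraries a group, depth and the number of libraries limit these results. Between C24 and Ler-1, 246 events were called, and limma on PSI called 59; the other planned settings gave 187 (DESeq2) to 337 (replicate block). Leaving out 1 library gave 19 to 126, with fewer samples in the fit. Between the hybrids, 56 were called, with 1 by limma on PSI and 5 to 11 without 1 library. Libraries with the same replicate number had correlations of deviations of 0.0611 (accessions) and 0.233 (hybrids) over 2 pairs. These are too few pairs to tell whether such libraries shared a batch, which the labels do not say. The main tests had no replicate block, and with it the hybrid test called 130.

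By type, limma on PSI called 26 IR, 16 Alt3, 17 Alt5 and 0 skipped exons (edgeR 93, 80, 56 and 17), and differences of at least 10 points left 51 Alt3 and 10 skipped exons. Without 1 library the counts were 5 to 45 (IR), 11 to 45 (Alt3), 2 to 28 (Alt5) and 1 to 10 (skipped exons). The share with the same direction in the hybrids was 87.7% to 100% without 1 library. The share called with different intron lengths was 8.79% by DESeq2 and 8.44% at 10 points or more, against 2.6% and 2.43% with equal lengths, and without 1 library 0.577% to 5.88%, against 0.327% to 1.79%; these settings for intron length were chosen after seeing the data. The cause of these changes was not tested.

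Of the 33 named events 0 changed direction under these settings, and 22 kept enough reads to be tested, and were called, at a minimum of 20 reads. DESeq2 and limma on the logit each ended 3 calls and limma on PSI 17, without Ler-1 replicate 1 or replicate 2 21 and 20 calls ended, and without C24 replicate 1 or replicate 2 4 and 3. The replicate block ended 0 named calls.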

Other observations

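The following called events were chosen for naming after their values were seen. PnsL1, a subunit of the chloroplast NADH dehydrogenase-like complex, spliced out a 100-base stretch that is not an annotated intron, with a PSI of 68.3% and 70.7% in C24, against 99.3% and 99.5% in Ler-1 (edgeR adjusted p = 1.9e-05), and 63.1% and 72.6% in Col-0 x C24, against 86.8% and 82.5% in Col-0 x Ler-1. AL6, an alfin-like protein that binds histone H3, kept 27 coding bases in 98.9% and 98.5% of reads in C24, against 53.9% and 41.2% in Ler-1 (adjusted p = 2.81e-05). G-TMT, the gamma-tocopherol methyltransferase of vitamin E synthesis, kept 6 coding bases in 98.5% and 98.9% of reads in C24, against 47.6% and 41.3% in Ler-1 (adjusted p = 3.5e-05).

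AT3G13410 chose between acceptors 3 bases apart, with a PSI of 51.1% and 49.5% in C24 and 0 of 362 reads in Ler-1, and 28.8% and 28.4% in Col-0 x C24. Kro-0 stood at 55.4% and Col-0 and Bur-0 at 0%. Cpn60beta2, a chloroplast chaperonin, retained a 91-base coding intron in 15.5% and 15.4% of reads in C24 and in 0 of 586 in Ler-1, while the hybrids had 24.2% and 20.6% in Col-0 x C24, against 20.3% and 24.2% in Col-0 x Ler-1 (interaction adjusted p = 0.00442).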
